A study of Mus musculus with 6 samples.

Results

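The 9 B cell genes *Ms4a1*, *Cd79a*, *Cd79b*, *Cd22*, *Pax5*, *Cr2*, *Fcer2a*, *Cd37* and *Bank1* were followed in the lungs of GR+/+ and GRdim/dim mice after hemorrhagic shock (HS). They were chosen by gene symbol, with earlier results of these data known, and are 9 of the 54532 genes in the deposited read counts. Each genotype had 3 libraries, each from the lung of 1 mouse. In GRdim/dim mice a germline point mutation of *Nr3c1*, the glucocorticoid receptor gene, impairs dimerization of the receptor in all cells. GR+/+ mice carried the wildtype receptor. All mice were of the same mixed strain, were 10 to 16 weeks old and went through the same protocol. The protocol consisted of 1 h of blood withdrawal to a mean arterial pressure of 35 mmHg, then re-transfusion and 4 h of intensive care with ventilation, fluids and norepinephrine. The sexes were not balanced, since 2 of the 3 GR+/+ mice but 1 of the 3 GRdim/dim mice were female. By sex-linked expression, the female libraries were GR+/+ replicates 2 and 3 and GRdim/dim replicate 2. No library from mice without shock was analysed here, so every value describes lungs after HS, and an effect of the shock itself cannot be told apart from the genotype's own baseline.

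B cells recognise antigen through a membrane immunoglobulin that is held together with the signalling pair CD79a and CD79b. Co-receptors set the strength of that signal, with complement receptor 2 raising it and CD22 lowering it, and the transcription factor Pax5 keeps the cells in the B lineage. In the lung, B cells lie in the vessels, in the interstitium and in small lymphoid clusters. RNA of whole lung tissue was measured, so a different number of B cells and a different amount of B cell RNA per cell cannot be told apart.

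Total counts were 15687734 to 32082940 per library, and the 9 genes had 15 to 839 counts in single libraries. Levels are given as CPM, the counts of a gene scaled to a common library total with TMM factors. *Nr3c1* was detected at 120 to 162 CPM and did not pass the test (log2 fold change -0.05, adjusted *p* = 0.961 in edgeR). A point mutation does not show in gene counts, so this value checks no label. The tissue label was checked with *Sftpc*, the surfactant protein C gene of alveolar type 2 cells, which lay between 9270 and 16400 CPM. In each genotype, 1 library stood apart for the genes described here. GR+/+ replicate 2 had the highest level of its genotype for 8 of the 9 genes, all but *Cr2*. GRdim/dim replicate 2 had the highest level of its genotype for 8 of them, all but *Cd79a*.

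All 9 genes had a higher mean level in GRdim/dim than in GR+/+ lungs, and none of them was a differentially expressed gene (DEG) in edgeR. A DEG had an adjusted *p* below 0.05 and a log2 fold change beyond 0.5, and 0.169% of the 16568 genes tested met this. The log2 fold changes ran from 0.52 to 1.60 with a median of 0.83, which is 1.78-fold. Over all genes tested, 50.9% had a log2 fold change above 0 and 9.72% one above 0.5. Such shares are a description and no test, since the 9 genes were not chosen independently of these data. An unadjusted *p* below 0.05 was found for 6 of the 9 genes in edgeR, all higher in GRdim/dim, where 4.91% of all genes passed in that direction. DESeq2 called 1 of the 9 genes, *Bank1*, where 0.817% of its 16150 genes were called higher in GRdim/dim and 1.7% in either direction. The number called depended on the setting. It was 3 in edgeR without the filter on low counts (*Cd79a*, *Cd37* and *Bank1*), where 0.813% of 31368 genes were called higher. In DESeq2 it was 4 without GR+/+ replicate 2 (*Cd79a*, *Pax5*, *Cd37* and *Bank1*, with 0.613% of all genes called higher) and 2 without GRdim/dim replicate 3 (*Cr2* and *Bank1*, with 1.03%). With any of the 4 other libraries left out, DESeq2 called 0 of the 9 genes. With sex-linked expression as a covariate, 0 of the 9 genes were called in edgeR, and the log2 fold changes were 0.85 for *Fcer2a* to 1.78 for *Bank1*. The CPM of the 9 genes summed to 43.7, 79.6 and 39.6 in GR+/+ and to 85.0, 119 and 96.1 in GRdim/dim libraries. All 3 GRdim/dim sums lay above all GR+/+ sums, but GRdim/dim replicate 1 and GR+/+ replicate 2 lay close to each other.

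**Figure D1:**
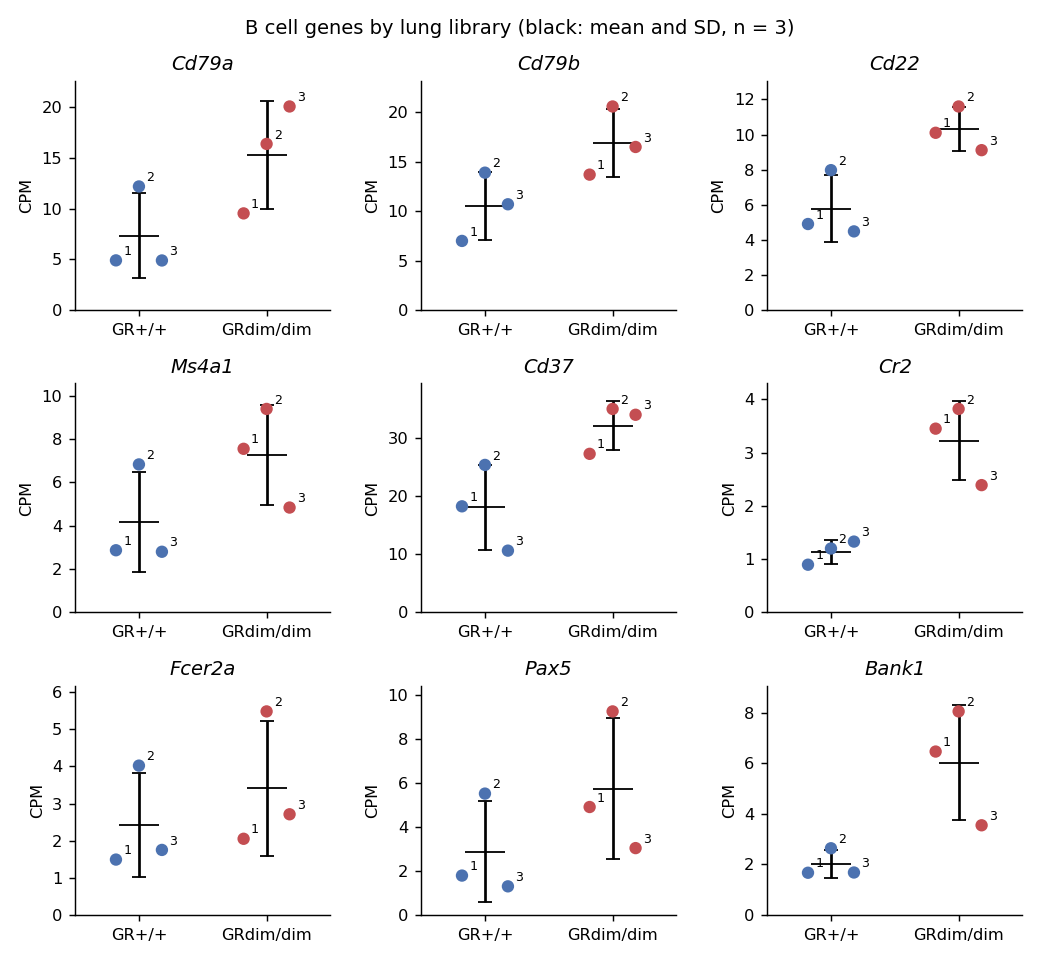
CPM scaled by TMM factors (y axis) of each of the 9 genes in every library, with numbered points for the replicates and black marks for the mean and SD of each genotype (n = 3). The GRdim/dim mean lies above the GR+/+ mean in every panel, and the 2 genotypes do not overlap for *Cd22*, *Cr2*, *Cd37* and *Bank1*.

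The promoters of 3 genes are printed because *Bank1* and *Cr2* had the largest differences and *Pax5* encodes the lineage factor. Each is the 250 bases before the RefSeq start in GRCm38.p6, 5′ to 3′ on the gene's strand, with matches to 4 short motifs in capitals. The windows are chr3:136326067-136326316 for *Bank1*, chr1:195176720-195176969 for *Cr2* and chr4:44710695-44710944 for *Pax5*, all on the minus strand, and they lie outside the gene models of the deposited counts.
Bank1: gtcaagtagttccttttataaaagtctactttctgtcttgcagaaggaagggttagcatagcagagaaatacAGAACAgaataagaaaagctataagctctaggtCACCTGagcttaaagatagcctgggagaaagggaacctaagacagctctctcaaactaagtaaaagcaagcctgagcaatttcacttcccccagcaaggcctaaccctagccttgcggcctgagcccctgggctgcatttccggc
Cr2: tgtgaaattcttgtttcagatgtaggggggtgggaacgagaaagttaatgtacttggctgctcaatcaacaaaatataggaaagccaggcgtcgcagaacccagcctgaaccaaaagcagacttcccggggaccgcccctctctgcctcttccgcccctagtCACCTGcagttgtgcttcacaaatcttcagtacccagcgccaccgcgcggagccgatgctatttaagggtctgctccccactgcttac
Pax5: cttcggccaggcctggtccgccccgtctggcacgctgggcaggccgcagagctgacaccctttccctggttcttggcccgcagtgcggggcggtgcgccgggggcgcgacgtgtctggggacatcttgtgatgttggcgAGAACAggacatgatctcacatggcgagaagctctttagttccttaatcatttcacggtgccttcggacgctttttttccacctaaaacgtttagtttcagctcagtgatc

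Promoters of 7 of the 9 genes were found in the RefSeq table, and *Cd79b* and *Ms4a1* had no entry. The E box CAGGTG, a sequence that E2A factors can bind, was found in 5 of the 7 windows. It lay 145 bases before the start of *Bank1* and 88 before that of *Cr2*, and it was also found for *Cd22*, *Cd37* and *Cd79a*. The windows of *Cd22* and *Cd37* lie wholly inside the gene models of the deposited counts, and 116 bases of that of *Cd79a* do. For *Fcer2a* the first of its windows in the table was counted, which holds none, while another window inside its gene model holds 2. Of all 27025 promoters, 17.1% hold it. The hexamer AGAACA, which the glucocorticoid receptor can bind, was found 178 bases before the start of *Bank1* and 111 before that of *Pax5*, and 16.2% of all promoters hold it. The octamer ATGCAAAT was in none of the 7 windows, against 1.61% of all. The ETS site GAGGAA was in 2, those of *Cd37* and *Cd79a*, against 23.1% of all. Both strands were searched, and no motif contains another. These matches describe letters in a window and not binding.

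*Cd79a* and *Cd79b* encode the signalling pair of the B cell receptor. *Cd79a* (chr7:24897381-24902197, GRCm38, plus strand) had CPM of 4.90, 12.2 and 4.89 in GR+/+ and of 9.54, 16.4 and 20.1 in GRdim/dim libraries. GR+/+ replicate 2 lay above GRdim/dim replicate 1, so the genotypes overlapped. The means were 7.34 ± 4.23 and 15.3 ± 5.35 (SD, n = 3 per genotype). This gave 1.07 on the log2 scale (SE 0.41, edgeR adjusted *p* = 0.441). Of the 31-base windows of the *Cd79a* transcript, 12.2% also occur in *Gm32220*, which had at most 2 counts in any library.

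*Cd79b* (chr11:106311341-106314762, minus strand) had CPM of 6.99, 13.9 and 10.7 in GR+/+ and of 13.7, 20.6 and 16.5 in GRdim/dim. The overlap here was slight, because GR+/+ replicate 2 was just above GRdim/dim replicate 1. On the log2 scale the difference was 0.68 (SE 0.29, edgeR adjusted *p* = 0.486). Per kb of gene model, the ratio of *Cd79a* to *Cd79b* was 0.688, 0.864 and 0.447 in GR+/+ and 0.682, 0.784 and 1.20 in GRdim/dim. The ratios overlapped, and no difference was detected in an exact two-sided permutation test (*p* = 0.5, adjusted *p* = 0.84 over the 21 ratios computed), where 3 against 3 libraries cannot go below 0.1.

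*Cd22* encodes a sialic acid-binding lectin that restrains B cell receptor signalling. The CPM were 4.90, 7.97 and 4.48 in GR+/+ and 10.1, 11.6 and 9.11 in GRdim/dim. Every GRdim/dim library lay above every GR+/+ library, and *Cd22* had the smallest spread among GRdim/dim libraries, with a ratio of highest to lowest of 1.27. Its log2 fold change was 0.83 (SE 0.29, adjusted *p* = 0.406 in edgeR). The gene lies at chr7:30865402-30880342 on the minus strand.

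*Cr2* encodes complement receptor 2, which lowers the threshold for activation by complement-coated antigen and is also made by follicular dendritic cells. It lies at chr1:195136811-195176716 on the minus strand. The counts were low, at 15, 20 and 42 in GR+/+ and 64, 92 and 37 in GRdim/dim libraries. This corresponds to CPM of 0.896, 1.20 and 1.33 against 3.45, 3.82 and 2.39, with no overlap. *Cr2* also had the smallest spread among the GR+/+ libraries, with a ratio of highest to lowest of 1.49, and it was the one gene that was not highest in GR+/+ replicate 2. Its log2 fold change was 1.48 (SE 0.38), with an adjusted *p* of 0.224 in edgeR and of 0.0606 in DESeq2. Without GRdim/dim replicate 3, DESeq2 gave 1.66 (adjusted *p* = 0.0363).

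*Ms4a1* encodes CD20, a membrane protein of mature B cells. It lies at chr19:11249675-11266241 on the minus strand. The CPM were 2.87, 6.83 and 2.80 in GR+/+ and 7.55, 9.39 and 4.84 in GRdim/dim. GR+/+ replicate 2 was above GRdim/dim replicate 3. The difference of 0.81 on the log2 scale did not pass the test (SE 0.41, edgeR adjusted *p* = 0.576).

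*Cd37*, a tetraspanin gene of B cells that other leukocytes also express, had the highest CPM of the 9. It was at 18.2, 25.3 and 10.6 CPM in GR+/+ and at 27.2, 34.9 and 33.9 in GRdim/dim libraries. The genotypes did not overlap, although GR+/+ replicate 2 came near GRdim/dim replicate 1. The log2 fold change was 0.83 (SE 0.29, edgeR adjusted *p* = 0.405). *Cd37* lies at chr7:45233632-45239115 on the minus strand, and 13 of its exon bases overlap *Tead2* on the other strand. The use of strand in counting is not given in the sources used here.

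*Fcer2a* encodes CD23, the low-affinity IgE receptor, which follicular B cells carry. It had the smallest difference of the 9 genes. Its CPM were 1.49, 4.02 and 1.75 in GR+/+ and 2.05, 5.48 and 2.71 in GRdim/dim libraries, so GR+/+ replicate 2 was above GRdim/dim replicates 1 and 3. Its log2 fold change was 0.52 (SE 0.49, edgeR adjusted *p* = 0.815). Without GRdim/dim replicate 2 it was -0.01, so the direction rested on that library. The gene lies at chr8:3681737-3694175 on the minus strand.

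*Pax5* (chr4:44524757-44710487, minus strand) had the widest spread of the 9 genes within both genotypes. The CPM were 1.79, 5.52 and 1.30 in GR+/+ and 4.91, 9.26 and 3.04 in GRdim/dim. The highest GR+/+ library was 4.24 times the lowest, the highest GRdim/dim library was 3.05 times the lowest, and GR+/+ replicate 2 was above GRdim/dim replicates 1 and 3. Its log2 fold change of 1.03 had the largest SE of the 9 genes, 0.57 (edgeR adjusted *p* = 0.621).

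*Bank1* encodes a scaffold protein that links the B cell receptor to Lyn and calcium signalling. It had the largest difference of the 9 genes and lies at chr3:136053363-136326066 on the minus strand. The counts were 28, 44 and 53 in GR+/+ and 120, 194 and 55 in GRdim/dim libraries. The CPM were 1.67, 2.64 and 1.68 against 6.47, 8.06 and 3.55, and the genotypes did not overlap, with GRdim/dim replicate 3 the lowest of its genotype. The log2 fold change was 1.60 (SE 0.38), or 3.04-fold, and missed the threshold in edgeR (adjusted *p* = 0.199). In DESeq2 the log2 fold change of 1.61 (SE 0.41) passed it (adjusted *p* = 0.0101). That call was lost in DESeq2 without GR+/+ replicate 1 (adjusted *p* = 0.104), GR+/+ replicate 3 (0.101), GRdim/dim replicate 1 (0.099) or GRdim/dim replicate 2 (0.203). In edgeR without the filter on low counts *Bank1* was called (adjusted *p* = 0.00498), so the call depended on the tool, the filter and single libraries. The exact two-sided permutation test gave *p* = 0.1, the smallest that 3 against 3 libraries allow.

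**Figure D2:**
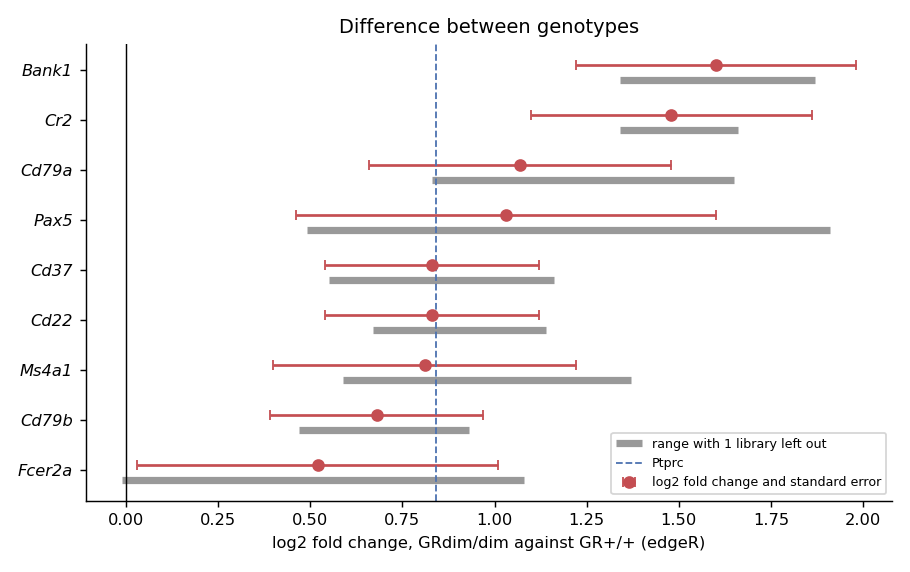
Log2 fold change of GRdim/dim against GR+/+ lungs (x axis) for each of the 9 genes (y axis), from edgeR, with thin bars for the standard error, grey bars for the range with 1 library left out and a dashed vertical line for *Ptprc*. All 9 values lie above 0, from 0.52 for *Fcer2a* to 1.60 for *Bank1*.

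The genotypes did not overlap for 4 of the 9 genes, where every GRdim/dim library lay above every GR+/+ library for 7.77% of all genes tested. The 5 others overlapped through GR+/+ replicate 2. Without that library none of the 9 genes overlapped, against 12.7% of all genes not overlapping in the same setting. The number not overlapping was 6 without GRdim/dim replicate 1 (13.9% of all genes) and 5 without GRdim/dim replicate 3 (14.8%). It stayed at 4 without GR+/+ replicate 1 (11.6%), GR+/+ replicate 3 (12.3%) or GRdim/dim replicate 2 (12.5%). The plot of centred levels shows the same libraries on top for most genes. The mean profile of the 9 genes, as log2 CPM centred on each gene, was -0.82, 0.14 and -0.82 in GR+/+ and 0.34, 0.89 and 0.26 in GRdim/dim. *Cd22* lay closest to it, with a root mean square difference of 0.151, and *Pax5* farthest, with 0.412.

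**Figure D3:**
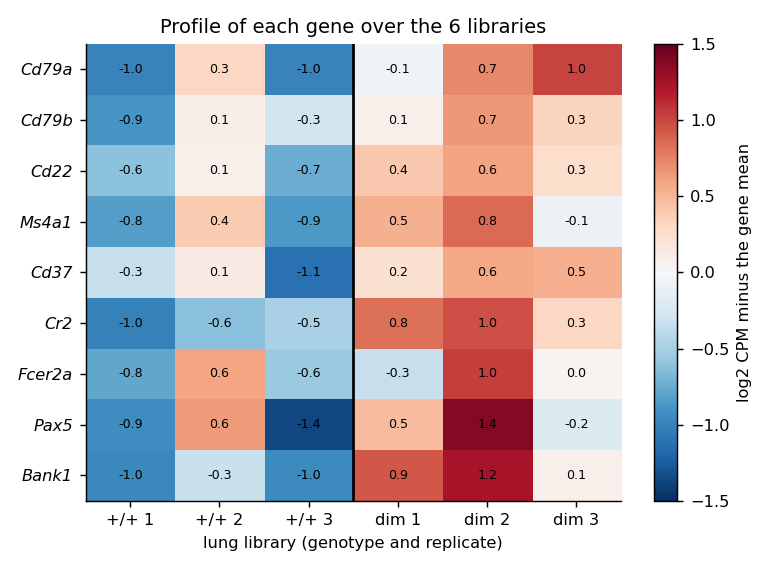
Log2 CPM of the 9 genes, centred on each gene's mean over the 6 libraries and shown as colour and as a number in each cell, with genes in rows and libraries in columns. GR+/+ replicate 2 and GRdim/dim replicate 2 are the highest of their genotype for 8 genes each.

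Levels were compared between genes per kb of gene model. A gene model joins all exons of a gene and can be longer than its longest transcript. It has 6187 against 3075 bases for *Ms4a1* and 7486 against 4235 for *Bank1*. For *Pax5* it has 8853 against 8004, and for *Cd79b* both have 1431. The order of genes with similar levels can therefore depend on the length used. In GR+/+ lungs *Cd79b* was highest at 7.37 ± 2.42 CPM per kb, then *Cd37* at 5.12 ± 2.09 and *Cd79a* at 5.04 ± 2.91 (SD, n = 3). These 3 overlapped with each other and lay above the other 6 genes in every GR+/+ library. *Cd22* followed at 1.15 ± 0.378, *Fcer2a* at 0.782 ± 0.449 and *Ms4a1* at 0.673 ± 0.374, each overlapping with its neighbour, and *Ms4a1* also overlapped with the next. *Pax5* at 0.324 ± 0.260 and *Bank1* at 0.267 ± 0.074 overlapped with each other, and *Cr2* was lowest at 0.141 ± 0.0276, below all *Bank1* values. In GRdim/dim lungs the order was nearly the same, with *Cd79b* at 11.8 ± 2.40, *Cd79a* at 10.5 ± 3.67 and *Cd37* at 9.08 ± 1.19 overlapping with each other. *Cr2* was again lowest at 0.397 ± 0.0916 and overlapped with *Pax5* at 0.648 ± 0.361. *Bank1* stood at 0.805 ± 0.305, and its mean lay above that of *Pax5*, with overlapping libraries.

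**Figure D4:**
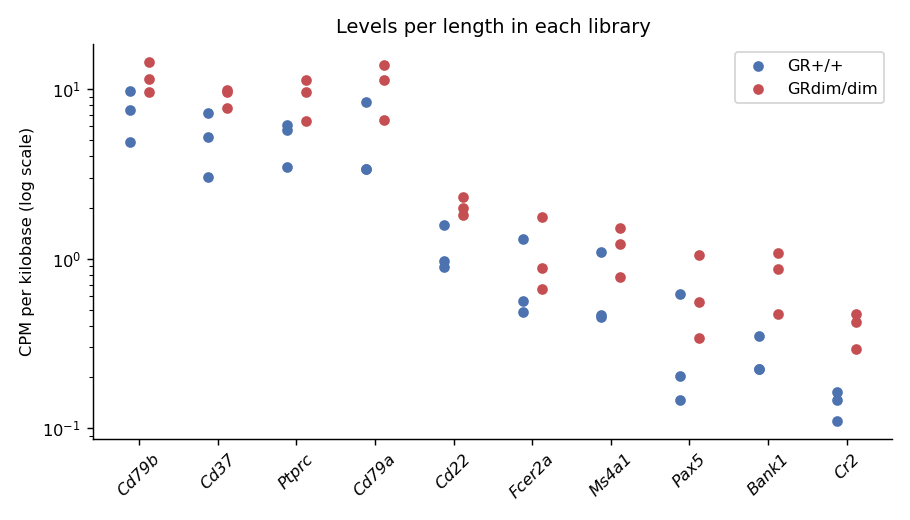
CPM per kb of gene model on a log axis (y axis) for each of the 9 genes and *Ptprc* (x axis), with points for single libraries of each genotype. *Cd79b*, *Cd37* and *Cd79a* lie above the other 6 of the 9 genes, and *Cr2* has the lowest mean in both genotypes.

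Levels were also set against *Ptprc* as ratios within each library. *Ptprc*, the gene of the pan-leukocyte protein CD45, was at 105, 112 and 63.6 CPM in GR+/+ and at 206, 176 and 118 in GRdim/dim libraries, with no overlap and a log2 fold change of 0.84 (SE 0.26, edgeR adjusted *p* = 0.332). Relative to *Ptprc*, the differences of the 9 genes ran from -0.33 for *Fcer2a* to 0.70 for *Bank1* on the log2 scale, and 8 of the 9 ratios overlapped between genotypes. The *Bank1* ratio did not overlap, with 0.0390, 0.0579 and 0.0648 in GR+/+ against 0.0769, 0.112 and 0.0736 in GRdim/dim. Its exact permutation *p* was 0.1, the smallest that 3 against 3 libraries allow, and the adjusted *p* over the 21 ratios was 0.7. This test could not have passed a threshold of 0.05.

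*Cr2* relative to *Fcer2a*, 2 surface genes of mature B cells, was 0.229, 0.114 and 0.291 in GR+/+ against 0.642, 0.266 and 0.336 in GRdim/dim, with an overlap (exact permutation *p* = 0.2, adjusted *p* = 0.7). None of the 21 ratios passed the correction, and none could have, since *p* of this test cannot go below 0.1 with 3 against 3 libraries.

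Other B cell genes were counted in lists by role, which were also chosen with earlier results of these data known. Of their 102 genes, 91 were tested, 71 had a positive log2 fold change and the median was 0.46, against 0.00645 over all genes. None was a DEG in edgeR, while 26 had an unadjusted *p* below 0.05 in the higher direction and 0 in the lower. Over all genes, 4.91% passed as higher and 4.68% as lower. DESeq2 called 5 of them higher, where 0.817% of all its genes were called higher. The same shares over all genes stand beside the counts of each list below, which all refer to the higher direction. Among 24 receptor signalling and co-receptor genes, 18 had a positive log2 fold change with a median of 0.40, and 9 had an unadjusted *p* below 0.05 as higher. *Rasgrp3*, a Ras activator, had 1.17 (edgeR adjusted *p* = 0.206) and was the 1 gene of this list that DESeq2 called (adjusted *p* = 0.00836). *Prkcb*, the kinase gene of the same pathway, had 1.03 (edgeR adjusted *p* = 0.262).

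The 14 B lineage transcription factors had 12 positive values with a median of 0.30, and none had an unadjusted *p* below 0.05. *Pou2af1* had a log2 fold change of 0.78, *Irf4* of 0.68 and *Ikzf1* of 0.54. Of 21 tested genes of other mature B cell functions, 19 had positive values with a median of 0.80, and 12 had an unadjusted *p* below 0.05. *Fcrl1*, an Fc receptor-like gene of B cells, was at 1.61, 1.80 and 1.33 CPM in GR+/+ and at 4.58, 5.69 and 3.81 in GRdim/dim. Its libraries did not overlap, and its log2 fold change of 1.58 (SE 0.33) was not called in edgeR (adjusted *p* = 0.131) but was in DESeq2 (adjusted *p* = 0.00783). *Ccr7*, a homing receptor gene of B and T cells, had 1.03 and was also called in DESeq2 (adjusted *p* = 0.0329), and *Fcmr*, the IgM Fc receptor gene, had 1.35.

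All 11 tested immunoglobulin constant genes had positive log2 fold changes with a median of 1.30, and 3 had an unadjusted *p* below 0.05. *Igkc*, the kappa light chain gene, was at 33.5, 53.0 and 60.4 CPM in GR+/+ and at 74.2, 277 and 228 in GRdim/dim. Its log2 fold change was 1.98 (edgeR adjusted *p* = 0.175) and was called in DESeq2 (adjusted *p* = 1.82e-05). *Ighm*, the IgM heavy chain gene, was at 27.6, 65.4 and 64.2 against 74.2, 356 and 304, with a log2 fold change of 2.22 that was called by neither tool (edgeR adjusted *p* = 0.286, DESeq2 adjusted *p* = 0.0886). For both genes GRdim/dim replicates 2 and 3 were far above replicate 1, which was still above all GR+/+ libraries. *Ighd*, which naive mature B cells express, was at 7.29, 15.9 and 5.18 CPM in GR+/+ and at 22.8, 25.2 and 17.6 in GRdim/dim (log2 fold change 1.22, edgeR adjusted *p* = 0.332, DESeq2 adjusted *p* = 0.0419). Its genotypes did not overlap. All other tested genes of the list overlapped between genotypes, and their SE ran from 0.27 to 1.56. The median of 1.30 therefore does not describe a rise in every library. The 6 tested plasma cell genes had a median of 0.30, with *Jchain* at 1.30, *Xbp1* at 0.73 and *Prdm1* at -0.51. The 3 tested precursor genes were negative, with a median of -0.43, and the 6 others were under the filter on low counts. *Vpreb3* had -0.27, *Cd93* -0.47 and *Erg* -0.43, and endothelial cells also express *Cd93* and *Erg*. Of 4 tested germinal centre genes 1 was positive, with *Gcsam* at 0.51, *S1pr2* at -0.28 and *Mybl1* at -0.30. The 8 marginal zone and B-1 genes had a median of 0.21, with *Dtx1* at 0.60, *Cd5* at 0.97 and *Spn* at 0.56, and none had an unadjusted *p* below 0.05.

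Markers of other cells were set beside the 9 genes, and their part in the result was not tested. None of the markers of T cells, NK cells, neutrophils or plasmacytoid dendritic cells was at 0 in all libraries, and *Ly6g* was under the filter. Of 16 T cell markers 15 had positive log2 fold changes with a median of 0.70, and their summed CPM were 87.9 to 165 in GR+/+ and 145 to 197 in GRdim/dim. *Trac* had 1.32 and was called higher in DESeq2 (adjusted *p* = 0.0253), *Cd3e* had 1.29 and *Trbc1* 1.06. All 8 NK cell markers were positive with a median of 1.01, and their summed CPM were 8.72 to 21.2 against 23.6 to 38.4, with *Klre1* at 1.64, *Gzma* at 0.98 and *Klrk1* at 0.90. All 7 tested neutrophil markers were positive with a median of 0.85 and overlapping sums of 255 to 510 and 356 to 1150, with *Retnlg* at 1.10 (called in DESeq2, adjusted *p* = 0.0225), *S100a9* at 0.95 and *S100a8* at 1.26. *S100a8* was at 397, 69.0 and 132 CPM in GRdim/dim, where replicate 2 lay below all GR+/+ libraries. All 7 plasmacytoid dendritic cell markers were positive with a median of 0.80 and sums of 228 to 236 against 275 to 413. *Irf7* was at 1.25 (called in DESeq2, adjusted *p* = 0.0131), *Siglech* at 1.38 and *Bst2* at 0.63. The largest part of these sums was *Tcf4*, at 147, 134 and 143 CPM in GR+/+ and 205, 190 and 128 in GRdim/dim. *Tcf4* and *Siglech* overlapped between genotypes, while *Irf7* and *Bst2* did not.

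The 9 alveolar macrophage markers had a median of -0.03, with sums of 371 to 420 in GR+/+ and 221 to 324 in GRdim/dim. Of these, *Chil3* had -0.88 and was called lower in DESeq2 (adjusted *p* = 0.0171). It was at 244, 250 and 264 CPM in GR+/+ and at 161, 156 and 95.6 in GRdim/dim, and without it the sums of the 8 other markers overlapped, with 121 to 155 against 125 to 163 CPM. In the same list, *Itgax* had 0.47 and *Marco* -0.70. Erythroid markers had a median of 0.52 and overlapping sums of 1110 to 4150 and 1730 to 4370, with *Hba-a2* at 0.76, *Hba-a1* at 0.70 and *Slc4a1* at 1.64. The SE of *Slc4a1* was 1.92, with 28.8 CPM in GRdim/dim replicate 2 but 0.485 and 1.74 in replicates 1 and 3. Endothelial markers had a median of -0.20 and overlapping sums of 2660 to 4060 and 3180 to 3610, with *Cldn5* at 0.94 (called in DESeq2, adjusted *p* = 0.0273), *Kdr* at -0.50 and *Pecam1* at -0.44. Alveolar type 1 and type 2 markers had a median of -0.06 and overlapping sums of 16500 to 24500 and 16100 to 26100, with *Aqp5* at 0.69, *Lamp3* at 0.23 and *Rtkn2* at -0.21. No marker list had a DEG in edgeR.

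*Cxcl13* encodes the chemokine that draws B cells into follicles. It was at 7.17, 4.20 and 2.83 CPM in GR+/+ and at 17.4, 7.35 and 14.5 in GRdim/dim libraries, and the genotypes did not overlap, though GR+/+ replicate 1 came near GRdim/dim replicate 2. The log2 fold change was 1.48 (SE 0.41) and was called in DESeq2 (adjusted *p* = 0.0148) but not in edgeR (adjusted *p* = 0.275). The order of its libraries differed from that of the 9 genes, since replicate 2 was the lowest of the GRdim/dim libraries. Of the 6 tested attractant and survival factor genes 4 were positive with a median of 0.10, with *Ltb* at 0.69 and *Tnfsf13* at -0.30. The follicular dendritic and lymphoid stromal list, which also holds *Cxcl13*, had a median of 0.40 over its 4 tested genes, with *Coch* at 0.59 and *Ltbr* at 0.20, and summed CPM of 374 to 478 in GR+/+ and 405 to 550 in GRdim/dim.

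**Figure D5:**
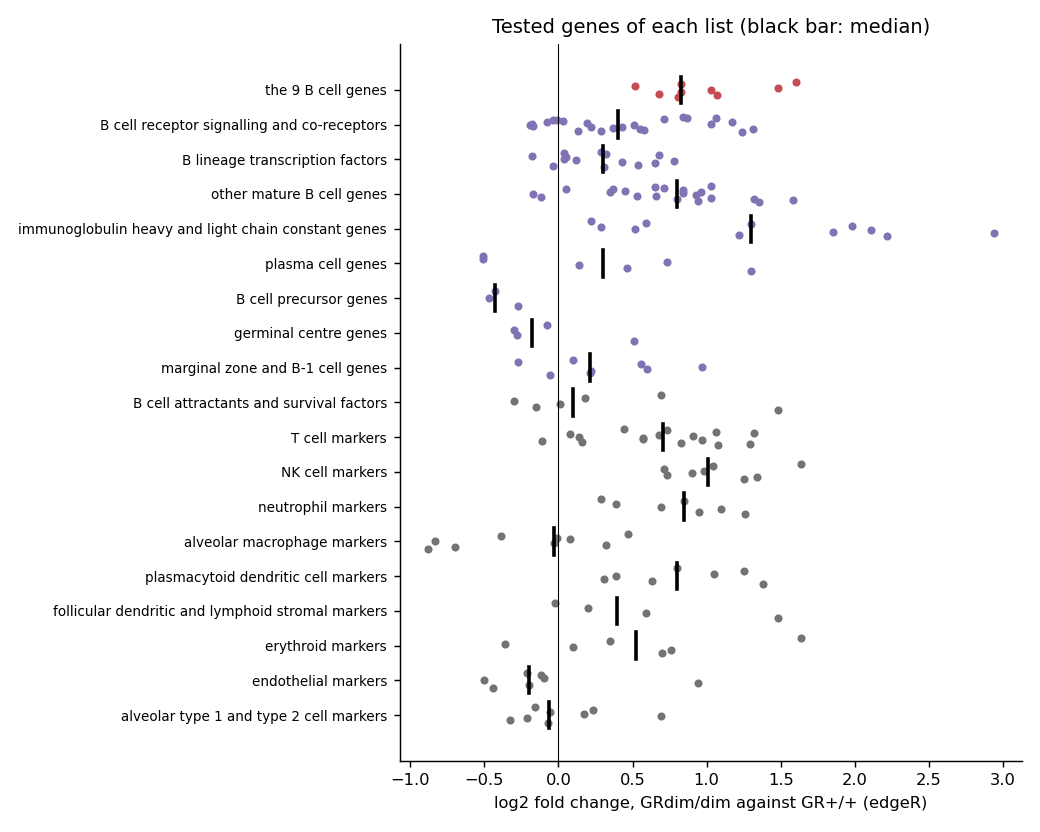
Log2 fold changes of GRdim/dim against GR+/+ lungs (x axis) for the tested genes of each list (y axis), with 1 point per gene and a black bar at the median of each list. The 9 genes have a median of 0.83 and the immunoglobulin genes 1.30, while the medians of the alveolar macrophage and the alveolar type 1 and type 2 lists are -0.03 and -0.06.

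Outside the lists, the profile over the 6 libraries most like the mean profile of the 9 genes was that of *Cela1*, with a root mean square difference of 0.0959 among 15163 genes compared. *Cd300lg* followed at 0.131, *Txk*, a kinase gene of T cells, at 0.135, *Acap1* at 0.159 and *Klrd1*, an NK cell receptor gene, at 0.161. Their log2 fold changes were 1.19, 0.91, 1.24, 0.94 and 1.17 in that order. Of the 9 genes, which set the mean profile themselves, *Cd22* alone lay within this range. These 5 genes were taken as closest among many, so the measure describes them and is no test.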

How the data were processed

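RNA from lung tissue of 3 GR+/+ and 3 GRdim/dim mice was sequenced as poly(A)-captured libraries. Per gene, the authors deposited raw counts of reads, as whole numbers neither normalized nor pooled, with the length of each gene model. The labels name mm10 and DESeq2. The aligner, counting tool and use of strand are not given in the sources used here. The positions and lengths of all 9 genes equal those of GENCODE M21 (GRCm38).

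Counts were tested in R 4.3.3 with edgeR 4.0.16 (TMM, filterByExpr, robust glmQLFit, glmQLFTest), with Benjamini-Hochberg adjustment over 16568 genes, and with DESeq2 1.42.0 as an alternative. The thresholds, adjusted *p* of 0.05 and log2 fold change of 0.5, are those of the study. Standard errors are the log2 fold change divided by the square root of F. CPM were scaled by TMM factors, with a prior count of 2 for log2 values. On counts simulated from these libraries, a larger share of the calls of DESeq2 than of edgeR was false, and both shares were above the threshold. The simulation drew independent libraries with dispersions that edgeR had estimated for the tested genes, so it cannot rank the tools on these data. Permutation tests were exact and two-sided. Each library is 1 mouse, and genotypes and numbers come from the labels.

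Promoter motifs were searched in RefSeq windows, with shares over 1 window per gene symbol. A further 2 motifs were searched and left out, because their letters had not been read from a file. The 9 genes and the lists were chosen with earlier results of these data known. Named were the 9 genes, the 3 genes with the smallest edgeR *p* of each list, *Ptprc* and the 5 genes most like the 9 in profile with a mean CPM of at least 1. *Nr3c1*, *Sftpc* and the genes sharing bases with the 9 were added as checks, and *Tcf4* because it had the highest CPM of its list. A gene that the rule also names is left out here. Alternatives were RLE scaling, no filter, a minimum of 10 counts in each library, the replicate number as a block, DESeq2, sex-linked expression as a covariate and each library left out, the last also in DESeq2, chosen after seeing the data.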

Additional observations from a re-analysis of the deposited data

How the results depend on the processing

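The log2 fold changes of the 9 genes were recomputed in 162 alternatives, of which 150 kept direction and call, 10 passed the threshold and 2 turned the direction. The cause of these changes was not tested. The number of the 9 genes called was 0 in edgeR, where 0.169% of 16568 genes were called in either direction. It was 3 without the filter on low counts, where 0.813% of 31368 genes were called higher. These were *Cd79a* (1.07), *Cd37* (0.83) and *Bank1* (1.60), with edgeR adjusted *p* = 0.0199, 0.0349 and 0.00498. It was 1 in DESeq2 (*Bank1*, 1.61, adjusted *p* = 0.0101), where 0.817% of 16150 genes were called higher. DESeq2 called 4 without GR+/+ replicate 2 (*Cd79a* 1.64, *Pax5* 1.91, *Cd37* 1.15 and *Bank1* 1.85), where 0.613% of all genes were called higher. It called 2 without GRdim/dim replicate 3 (*Cr2* 1.66 and *Bank1* 1.88), where 1.03% were called higher. In each of the 4 other leave-outs DESeq2 called 0, and the call of *Bank1* was lost (adjusted *p* = 0.099 to 0.203). *Fcer2a* turned to -0.01 in edgeR and -0.03 in DESeq2 without GRdim/dim replicate 2. With each library left out, edgeR gave 0.59 to 1.37 for *Ms4a1*, 0.83 to 1.65 for *Cd79a*, 0.47 to 0.93 for *Cd79b*, 0.67 to 1.14 for *Cd22*, 0.49 to 1.91 for *Pax5*, 1.34 to 1.66 for *Cr2*, -0.01 to 1.08 for *Fcer2a*, 0.55 to 1.16 for *Cd37* and 1.34 to 1.87 for *Bank1*.

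The number of the 9 genes that did not overlap was 4, against 7.77% of all genes with GRdim/dim above GR+/+. It was 9 without GR+/+ replicate 2 (12.7% of all genes), 6 without GRdim/dim replicate 1 (13.9%) and 5 without GRdim/dim replicate 3 (14.8%). It stayed at 4 without any one of the other libraries (11.6% to 12.5%). Of the other B cell genes, 0 were called in edgeR, 13 without the filter (0.813% of all genes called higher) and 5 in DESeq2 (0.817%). With the replicate block 2 were called (0.0785% of all genes called higher). With a library left out, edgeR called 0 to 2 (0.00587% to 0.0769%) and DESeq2 0 to 7 (0.367% to 1.03%). Of the attractants and markers of other cells, 0 were called in edgeR, 11 without the filter, 6 in DESeq2 and 1 to 6 with a library left out in DESeq2. Over all genes, 0.813% were called higher without the filter, and 1.7% were called in either direction in DESeq2. Same-numbered libraries correlated at 0.218, 0.036 and -0.055 in their deviations from the genotype means, and 0.218 was the highest of all pairs. GR+/+ replicate 3 correlated best with GRdim/dim replicate 2, at 0.194. With so few libraries these values cannot decide whether the numbers pair the mice. With the replicate block, 0 of the 9 genes were called, and their log2 fold changes were 0.51 to 1.54. *Cr2* had the fewest counts, 15 to 92 per library.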

Other observations

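Per kb of gene model, the ratio of *Ighm* to *Ighd* was 3.81, 4.14 and 12.5 in GR+/+ and 3.29, 14.2 and 17.4 in GRdim/dim libraries. The ratio therefore varied within both genotypes and overlapped between them (exact two-sided permutation *p* = 0.6, adjusted *p* = 0.84). *Vpreb3* was at 8.43, 17.3 and 18.6 CPM in GR+/+ and at 8.20, 17.8 and 10.7 in GRdim/dim libraries, so replicate 1 was the lowest of each genotype for this gene.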
